A study of Mus musculus with 8 samples.

Results

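Arg1, Mrc1, Cd163, Chi3l3, Retnla, Nos2, Trem2, Tyrobp and Itgb2 are markers by which macrophages and other myeloid cells are recognised and by which their state of activation is described. They were taken by symbol from the expression table, and all 9 were found among its 248 genes. RNA of the whole conjunctiva, the membrane that lines the lids and covers the white of the eye, was measured in 8 female C57BL/6J mice. All of them were kept under desiccating stress (DS) for 5 days, a model of dry eye that joins a drafty, dry environment with scopolamine injections that block tear secretion. During this time 4 mice (numbered 5 to 8 in the labels) were given PBS vehicle once a day by oral gavage, and the other 4 (numbered 9 to 12) were given 100 µl of 0.5 mM tributyrin, which releases butyrate when it is digested. Their age is 8 weeks in the labels and 8 to 12 weeks at sacrifice in the methods. Mice without DS were not analysed here, so the values compare treatments within stressed tissue only.

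Macrophages take on different programs according to the signals they meet. The cytokines IL-4 and IL-13 act through the transcription factor STAT6 and raise Arg1, Mrc1, Retnla and Chi3l3 in mouse macrophages, a state called alternative activation. Interferon gamma and bacterial products raise Nos2 instead, the marker of classical activation, and the enzymes made from Arg1 and Nos2 compete for the same substrate, arginine. Trem2, Tyrobp and Itgb2 were taken as general markers of myeloid cells. Itgb2 at least is carried by other leukocytes as well, and whether any of them depends on the state of activation was not tested.

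Promoter sequences are shown first for Retnla, Mrc1 and Cd163, whose values moved together from mouse to mouse, and for Chi3l3, which had the largest difference between the groups among the 9 markers. They come from RefSeq on build GRCm38.p6, run 5′ to 3′ on the strand of the gene, and reach from 250 bases before the start of the transcript to 50 bases after it. The table used held a promoter for 5 of the 9 markers. On the same build, the genes of 4 others lie at chr10:24915207-24927470 (Arg1), chr11:78920787-78960226 (Nos2), chr7:30413782-30417582 (Tyrobp) and chr10:77530329-77565708 (Itgb2), and that of Trem2 at chr17:48346401-48352276. The window was chr16:48842359-48842658 (plus strand) for Retnla, chr3:106167515-106167814 (minus strand) for Chi3l3, whose current symbol is Chil3, chr2:14229164-14229463 (plus strand) for Mrc1 and chr6:124304401-124304700 (plus strand) for Cd163. Capitals mark the letters of a STAT motif, either TTCNNNNGAA, the spacing of 4 that STAT6 prefers, or TTCNNNGAA, with a spacing of 3.
Retnla: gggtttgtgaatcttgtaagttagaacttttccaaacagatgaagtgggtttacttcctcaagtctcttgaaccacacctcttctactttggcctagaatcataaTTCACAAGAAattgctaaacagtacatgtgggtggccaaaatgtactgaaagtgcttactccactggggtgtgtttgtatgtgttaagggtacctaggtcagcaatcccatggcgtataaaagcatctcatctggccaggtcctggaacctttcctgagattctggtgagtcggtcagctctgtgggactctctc
Chi3l3: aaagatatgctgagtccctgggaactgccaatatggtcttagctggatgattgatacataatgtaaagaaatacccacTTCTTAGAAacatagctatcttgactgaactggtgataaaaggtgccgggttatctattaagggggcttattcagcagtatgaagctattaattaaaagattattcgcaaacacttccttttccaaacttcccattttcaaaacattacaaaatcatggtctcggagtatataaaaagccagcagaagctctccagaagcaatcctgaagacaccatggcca
Mrc1: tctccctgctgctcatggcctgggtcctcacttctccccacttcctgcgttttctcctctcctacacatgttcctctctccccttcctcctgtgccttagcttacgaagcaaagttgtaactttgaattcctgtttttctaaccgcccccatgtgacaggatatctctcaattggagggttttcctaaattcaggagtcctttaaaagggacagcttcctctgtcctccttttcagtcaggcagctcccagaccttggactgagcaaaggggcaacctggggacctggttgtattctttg
Cd163: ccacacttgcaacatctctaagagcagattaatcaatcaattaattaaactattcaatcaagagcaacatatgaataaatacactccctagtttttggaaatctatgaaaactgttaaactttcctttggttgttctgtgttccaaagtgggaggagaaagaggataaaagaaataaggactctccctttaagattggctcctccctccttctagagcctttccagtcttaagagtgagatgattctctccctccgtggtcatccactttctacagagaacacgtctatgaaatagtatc

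The Retnla window held TTCACAAGAA from base -145 (counted from the start of the transcript) and the Chi3l3 window TTCTTAGAA from base -172. The Mrc1 and Cd163 windows held no match to either spacing. Both motifs read the same on either strand, and among the 32851 promoter windows of the same length 6.95% held the spacing of 4 and 8.30% the spacing of 3. A motif of the C/EBP factors, TTGCNNAA searched on both strands, stood just behind the STAT motif of Retnla, at base -134 and without overlap, and was present in 10.8% of all windows. GAGGAA, the core bound by the myeloid factor PU.1, was found 3 times in the Mrc1 window and once in that of Retnla, always on the opposite strand, and in 28.3% of all windows on either strand. The C/EBP motif was in no other of the printed windows, and GAGGAA was in neither Chi3l3 nor Cd163. A match describes the letters only, and binding was not measured.

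The values are normalized counts of fluorescently barcoded probes (nCounter), given as 1 value per gene and mouse, with each mouse scaled to reference genes. Counts of different probes are not compared as amounts of RNA, since each probe captures its target with its own efficiency. Totals of recovered counts were 1035041 to 1494519 per vehicle mouse and 742068 to 1344723 per tributyrin mouse, and the factors by which the counts had been scaled were largest in tributyrin mice 9 and 12, at 1.56 and 1.24. In whole tissue, fewer cells of a type and less RNA per cell cannot be told apart. Defining markers of conjunctival epithelium and goblet cells, such as Krt13 and Muc5ac, were not analysed here, so the tissue label was not checked against them.

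None of the 9 markers passed the test between tributyrin and vehicle. Genes were compared with limma, a linear model with a shared estimate of the spread, on the log2 values, and p-values were adjusted over all 248 genes by the Benjamini-Hochberg method. At an adjusted p under 0.05, 0 of the 9 markers and 0% of the panel were called. The panel's count was 6 or 7 with several other settings, such as median centring (6) and a mean-variance trend (7), and 6 without vehicle mouse 8, none of them one of the 9. At an unadjusted p under 0.05, 1 of the 9 was called, Itgb2, where 31 of 248 genes, or 12.5%, were called over the panel. The groups of 4 mice overlapped for all 9 markers, whereas 18 genes of the panel, or 7.26%, had groups that did not overlap. A log2 difference (tributyrin minus vehicle) above 0 was seen for 7 of the 9, with a median of 0.22 over the 9, beside 71.4% of the panel with a median of 0.06. Among the panel's genes with a mean normalized count from 20 to under 50, 50 of 58 lay above 0 with a median of 0.19. From 50 to under 100 it was 25 of 32 with a median of 0.18, and from 100 to under 1000 it was 32 of 46 with a median of 0.09. Of the 9 markers, 2 had a mean in the first of these bands, 2 in the next and 4 in the last, and the other was Arg1.

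**Figure D1:**
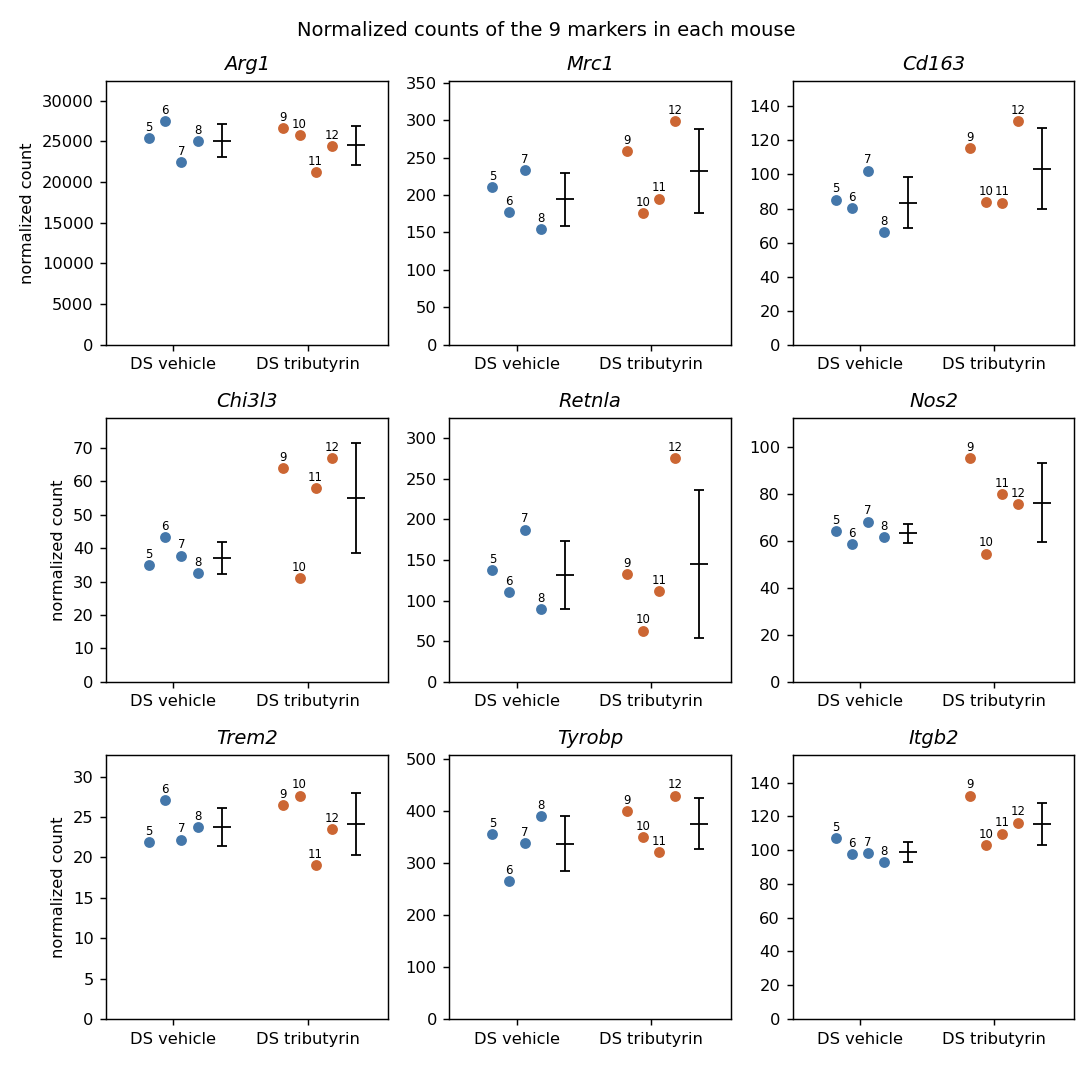
Normalized count (vertical axis, from 0) of each marker in each mouse, with the mouse number above its point. Blue points are the 4 DS vehicle mice and orange points the 4 DS tributyrin mice, black bars give the mean and SD of each group, and the groups overlap for all 9 markers.

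Among the alternative-activation markers, Arg1, the enzyme that splits arginine into urea and ornithine, stayed within a narrow range of high counts in all mice. Its normalized count was 25399, 27486, 22449 and 25069 in vehicle mice 5 to 8 and 26681, 25751, 21193 and 24450 in tributyrin mice 9 to 12. The highest and the lowest mouse of a group differed by 1.22-fold with vehicle and by 1.26-fold with tributyrin, and the groups covered nearly the same range. The log2 difference was -0.04 (standard error 0.09, 95% interval -0.25 to 0.18, limma adjusted p = 0.867). On a linear scale this interval runs from 0.84-fold to 1.13-fold. The difference turned positive without vehicle mouse 6 (0.0093) or tributyrin mouse 11 (0.033).

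Mrc1, the mannose receptor CD206, had normalized counts of 210.9, 176.8, 233.3 and 154.7 in vehicle mice 5 to 8 and of 258.6, 176.1, 195.1 and 298.5 in tributyrin mice 9 to 12. Tributyrin mice 9 and 12 were above every vehicle mouse, while mice 10 and 11 lay within the vehicle range. The mean was 194 ± 35.0 (SD, n = 4) in the vehicle group and 232 ± 56.6 (SD, n = 4) in the tributyrin group, a log2 difference of 0.24 (standard error 0.20, 95% interval -0.21 to 0.70, limma adjusted p = 0.627). It was -0.05 without mice 9 and 12, which were the mice of the lowest totals. That setting keeps only tributyrin mice 10 and 11 in their group and leaves out its highest Mrc1 values, so a lower difference follows from the choice.

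Cd163, the scavenger receptor that takes up haemoglobin bound to haptoglobin, had 85.2, 80.3, 102.2 and 66.0 normalized counts in vehicle mice 5 to 8. In tributyrin mice 9 to 12 it had 115.3, 83.8, 83.5 and 131.3. Again mice 9 and 12 were above all vehicle mice and mice 10 and 11 were not. The log2 difference was 0.30 (standard error 0.19, 95% interval -0.14 to 0.74, limma adjusted p = 0.480), and 0.02 without mice 9 and 12.

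Chi3l3 encodes the chitinase-like protein Ym1, which alternatively activated mouse macrophages secrete. Its normalized counts were 34.9, 43.4, 37.8 and 32.4 in vehicle mice 5 to 8 and 63.9, 31.0, 58.1 and 66.9 in tributyrin mice 9 to 12. Tributyrin mice 9, 11 and 12 were above all vehicle mice, and mouse 10 was below all of them. The mean was 37.1 ± 4.71 (SD, n = 4) in the vehicle group and 55.0 ± 16.4 (SD, n = 4) in the tributyrin group, a 1.43-fold difference, or 0.51 on the log2 scale (standard error 0.24, 95% interval -0.05 to 1.08). The limma adjusted p was 0.454 and the exact permutation p was 0.143 (two-sided, all 70 assignments of the mice, the smallest possible being 0.0286). Without tributyrin mouse 10 the log2 difference was 0.77 (limma adjusted p = 0.0648), and without mice 9 and 12 it was 0.20. The recovered counts behind these values were only 30 to 64 per mouse.

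Retnla, which encodes the secreted protein RELM-alpha (FIZZ1), had the widest spread of the 9 markers. Its normalized counts were 137.9, 110.7, 187.4 and 89.8 in vehicle mice 5 to 8 and 132.4, 62.9, 111.6 and 274.9 in tributyrin mice 9 to 12. Tributyrin mouse 12 was the highest and tributyrin mouse 10 the lowest of all 8, a 4.37-fold range within that group, against 2.09-fold within the vehicle group. The log2 difference was -0.0015 with a 95% interval of -1.01 to 1.01 (limma adjusted p = 0.998), or 0.50-fold to 2.01-fold. Leaving out 1 mouse moved it from -0.38 (without tributyrin mouse 12) to 0.33 (without tributyrin mouse 10), and leaving out mice 9 and 12 gave -0.60.

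Nos2, the inducible nitric oxide synthase, had 64.1, 58.6, 68.1 and 61.6 normalized counts in vehicle mice 5 to 8 and 95.04, 54.5, 79.9 and 75.5 in tributyrin mice 9 to 12. As for Chi3l3, tributyrin mice 9, 11 and 12 were above all vehicle mice and mouse 10 was below them. The mean was 63.1 ± 4.04 (SD, n = 4) in the vehicle group and 76.2 ± 16.7 (SD, n = 4) in the tributyrin group, a log2 difference of 0.25 (standard error 0.16, 95% interval -0.12 to 0.61, limma adjusted p = 0.480). It was 0.40 without tributyrin mouse 10 (limma adjusted p = 0.106), 0.13 without tributyrin mouse 9 and 0.04 with quantile normalization.

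Of the pan-myeloid markers, Tyrobp encodes DAP12, the signalling adaptor with which TREM2 and other myeloid receptors pair. Its normalized counts were 355.3, 264.7, 337.7 and 390.4 in vehicle mice 5 to 8 and 400.4, 349.6, 321.2 and 429.8 in tributyrin mice 9 to 12. The groups overlapped over most of their range, with vehicle mouse 6 the lowest of all. The log2 difference was 0.16 (standard error 0.14, 95% interval -0.17 to 0.49, limma adjusted p = 0.673), and 0.05 without vehicle mouse 6 or 0.0062 without mice 9 and 12.

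Itgb2 encodes CD18, the beta chain shared by the leukocyte integrins. It had 107.1, 97.6, 98.5 and 93.0 normalized counts in vehicle mice 5 to 8 and 132.4, 103.1, 109.8 and 116.4 in tributyrin mice 9 to 12. Tributyrin mice 9, 11 and 12 were above every vehicle mouse, and mouse 10 was below vehicle mouse 5 alone. The mean was 99.1 ± 5.87 (SD, n = 4) in the vehicle group and 115 ± 12.6 (SD, n = 4) in the tributyrin group, a 1.16-fold difference. Its log2 difference of 0.22 had a standard error of 0.09 and a 95% interval of 0.01 to 0.42. The unadjusted limma p was 0.0397, the adjusted p was 0.366 and the exact permutation p was 0.0571 (two-sided). The unadjusted limma p was 0.05 or more under 11 of 17 alternatives, among them median centring (0.0873), quantile normalization (0.0955), the mean-variance trend (0.0984), the scaling factor as a covariate (0.103) and leaving out any of 5 single mice, with values up to 0.239 without mice 9 and 12. The log2 difference was 0.15 to 0.27 without each mouse in turn, 0.12 with quantile normalization and 0.11 without mice 9 and 12. The last setting keeps only tributyrin mice 10 and 11 in their group and leaves out its highest Itgb2 values.

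Trem2, a receptor of macrophages and microglia for lipids, was measured at the lowest counts of the 9. Its normalized counts were 21.9, 27.1, 22.2 and 23.8 in vehicle mice 5 to 8 and 26.5, 27.7, 19.1 and 23.5 in tributyrin mice 9 to 12, from 17 to 33 recovered counts per mouse. The log2 difference was 0.02 (standard error 0.13, 95% interval -0.28 to 0.32, limma adjusted p = 0.956), and it changed sign with the scaling, at -0.0033 with median centring and -0.14 with quantile normalization.

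**Figure D2:**
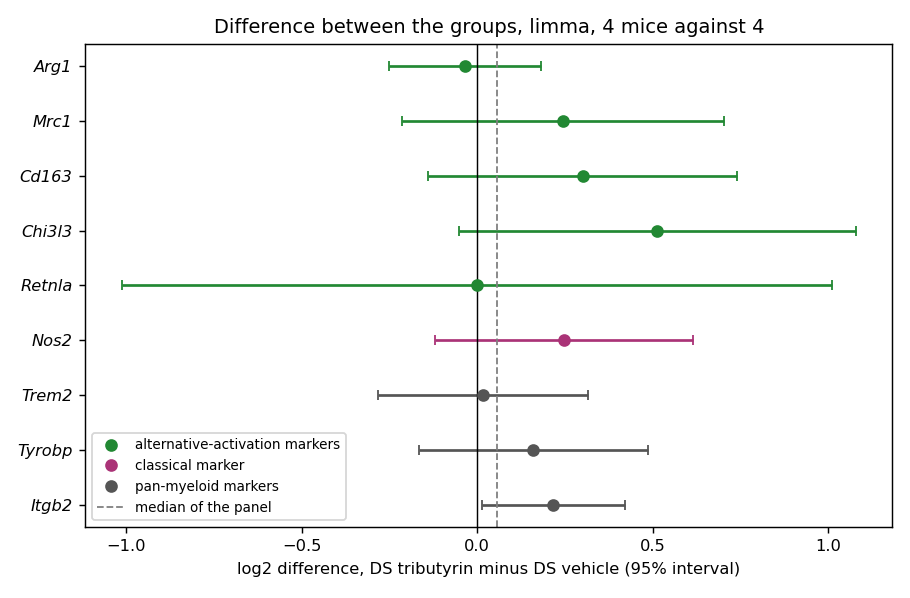
Log2 difference, DS tributyrin minus DS vehicle (horizontal axis), of each marker with its 95% interval from limma, coloured by role. The dashed line is the median of the 248 genes (0.06), and the intervals of 8 of the 9 markers include 0, Itgb2 (0.01 to 0.42) being the exception before adjustment.

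The low values were set beside genes whose main site of expression is another organ. From the panel 6 such genes were taken, of liver (Crp, Mbl2, C8a, C8b, C9) and heart muscle (Myl2), picked after the values were seen. Their normalized counts lay between 14.8 and 62.3 over all mice. Trem2 lay within this range in every mouse, Chi3l3 in every mouse but tributyrin mice 9 and 12, and Nos2 in vehicle mice 6 and 8 and tributyrin mouse 10. Arg1, Mrc1, Cd163, Retnla, Tyrobp and Itgb2 were above it in every mouse, Retnla in tributyrin mouse 10 (62.9) only just. This range depends on the genes picked. Its upper end was set by Myl2, and the liver genes among the 6 reached 49.9 at most (Crp). Nos2 was above 49.9 in every mouse, and Chi3l3 in tributyrin mice 9, 11 and 12. Kng1, another gene made mainly by the liver, was not among the 6 and lay between 47.7 and 74.8. Chi3l3 in every mouse and Nos2 in every vehicle mouse and tributyrin mouse 10 were below its highest value. So were Cd163 in vehicle mouse 8 (66.0) and Retnla in tributyrin mouse 10. All 6 genes had a log2 difference above 0, with a median of 0.33 and a range of 0.17 to 0.48, beside 0.51 for Chi3l3, 0.25 for Nos2 and 0.02 for Trem2. The summed normalized count of the 6 was 150 to 204 in vehicle mice and 195 to 263 in tributyrin mice. Whether the probe background had a part in the differences of the low markers was not tested.

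The spread between mice was then compared with the error of counting alone, taken from the mean recovered count of each marker. Retnla varied far more than counting allows, with a log2 SD of 0.45 over vehicle mice and 0.88 over tributyrin mice (n = 4 each) where counting gives 0.12. Mrc1 had SDs of 0.26 and 0.35 against 0.10, and Cd163 of 0.26 and 0.33 against 0.15. Tyrobp had 0.24 and 0.19 against 0.08, and Arg1 0.12 and 0.15 against 0.0091. For Chi3l3 and Nos2 only the tributyrin mice exceeded it, with 0.52 against 0.22 for Chi3l3 and 0.34 against 0.17 for Nos2, while the vehicle mice had 0.18 and 0.09. Trem2 varied less than counting error in both groups (0.14 and 0.24 against 0.29), and Itgb2 lay near it (0.08 and 0.15 against 0.14). Differences between single mice in Trem2 were therefore not detectable at this depth.

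**Figure D3:**
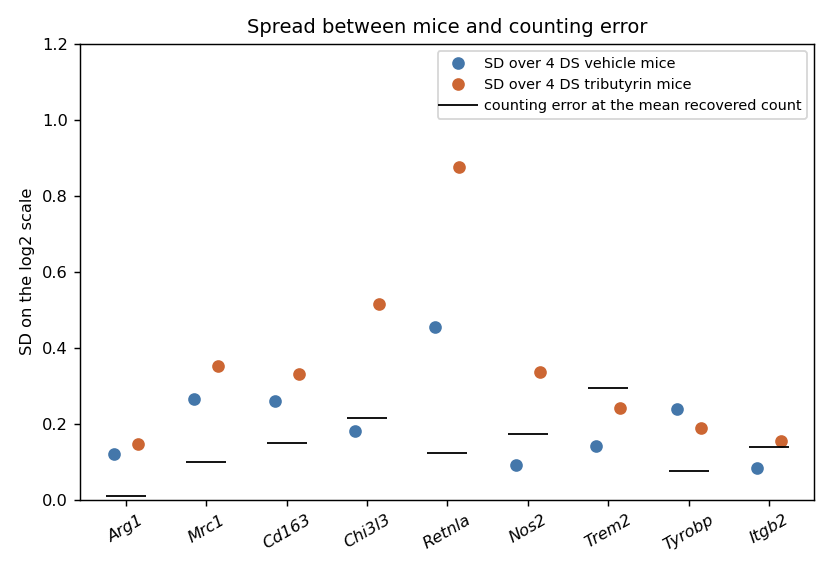
SD of the log2 values over the 4 mice of each group (vertical axis, points) for each marker, with the counting error expected at the mean recovered count (black dashes). Retnla stands highest in both groups (0.45 and 0.88), and both points of Trem2 lie under the dash at 0.29.

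Mrc1, Cd163 and Retnla followed each other from mouse to mouse within both groups. In the vehicle group mouse 7 was the highest of the 4 for each of these genes, followed by mice 5, 6 and 8 in that order. In the tributyrin group mouse 12 was the highest and mouse 9 the next for each, and mice 10 and 11 were the lower pair. As deviations from the group means over the 8 mice, Pearson r was 0.98 between Mrc1 and Cd163, 0.93 between Mrc1 and Retnla and 0.89 between Cd163 and Retnla. The 36 pairs of the 9 markers had a median r of 0.36, whereas it was 0.12 over the 15225 pairs of panel genes averaging 50 or more. The 2 sets are not matched in level, since Chi3l3 (mean 46.0) and Trem2 (24.0) are under that cut. All values of a mouse share its RNA, its scaling factor and its dissection, and the relations are given as a description. When the 2 mice lying farthest from the first gene's median were left out the 3 values were 0.97, 0.93 and 0.84, and with median centring they were 0.97, 0.88 and 0.81. With quantile normalization they were 0.28, 0.25 and 0.80. The deviations of all 9 markers had a positive r with those of the log2 scaling factor. It was 0.59 for Arg1, 0.58 for Chi3l3, 0.54 for Itgb2, 0.49 for Nos2 and 0.42 for Trem2, and 0.29 for Tyrobp, 0.24 for Cd163, 0.23 for Mrc1 and 0.21 for Retnla. The part of the scaling in the group differences of Chi3l3, Itgb2 and Nos2 was not tested beyond the covariate, with which these were 0.35, 0.17 and 0.16.

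The log2 ratio of Cd163 to Mrc1 was -1.31, -1.14, -1.19 and -1.23 in vehicle mice 5 to 8 and -1.17, -1.07, -1.22 and -1.18 in tributyrin mice 9 to 12, with SDs of 0.07 and 0.07. Counting error alone gives this ratio an SD of 0.18, so that no difference between mice was detectable at this depth. The log2 ratio of Retnla to Mrc1, with a counting error of 0.16, ran from -0.78 to -0.32 in vehicle mice and from -1.49 (mouse 10) to -0.12 (mouse 12) in tributyrin mice.

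The panel genes nearest to each marker in these deviations were sought among genes averaging 50 or more normalized counts. For Mrc1 they were C1ra (r = 0.98) and Cd163, for Cd163 they were C1s (r = 0.98) and Mrc1, and for Retnla they were C1ra (r = 0.96) and Ptgfr (r = 0.96). C1ra and C1s encode the proteases of the first complement component, which fibroblasts make in quantity, and Ptgfr is the receptor of prostaglandin F2 alpha. C1s had normalized counts of 415.3, 348.2, 498.4 and 310.4 in vehicle mice 5 to 8 and 517.3, 395.7, 367.5 and 626.7 in tributyrin mice 9 to 12, so that mice 7 and 12 were again the highest of their groups. With quantile normalization r was 0.89 for Mrc1 and C1ra, 0.94 for Cd163 and C1s and 0.08 for Retnla and C1ra. The crossed pairs then had 0.07 (Cd163 and C1ra), 0.38 (Mrc1 and C1s) and 0.74 (Retnla and C1s). C1ra and C1s had 0.06 with each other.

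The nearest genes of Tyrobp were Flt1 (r = 0.91), a receptor for vascular endothelial growth factor, and Cysltr1 (r = 0.89), a receptor for cysteinyl leukotrienes. C1qa, a chain of complement C1q that tissue macrophages make, stood close to it with r = 0.89, against 0.63 between C1qa and Mrc1, 0.59 between C1qa and Cd163 and 0.42 between Tyrobp and Mrc1. With quantile normalization the same 4 values were 0.93, 0.71, 0.40 and 0.73. With the 2 mice lying farthest from the marker's median left out, r with C1qa was 0.87 for Tyrobp, 0.91 for Cd163, 0.27 for Mrc1 and 0.12 for Retnla. C1qb, another chain of C1q, separated the markers less, with r of 0.74 for Tyrobp, 0.70 for Retnla, 0.66 for Mrc1 and 0.64 for Cd163. With median centring these were 0.45, 0.58, 0.53 and 0.56, Tyrobp then being the lowest of the 4. With quantile normalization they were 0.78, 0.42, 0.48 and 0.49, Tyrobp then being the highest. With the 2 mice left out they were 0.75, 0.20, 0.31 and 0.89, so that the order depended on the setting. Vehicle mouse 8 had the highest Tyrobp (390.4) and C1qa (292.0) of the vehicle mice and the lowest Mrc1 (154.7), Cd163 (66.0) and Retnla (89.8). Tributyrin mouse 12 was highest of its group for all of them, C1qa reaching 354.2.

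**Figure D4:**
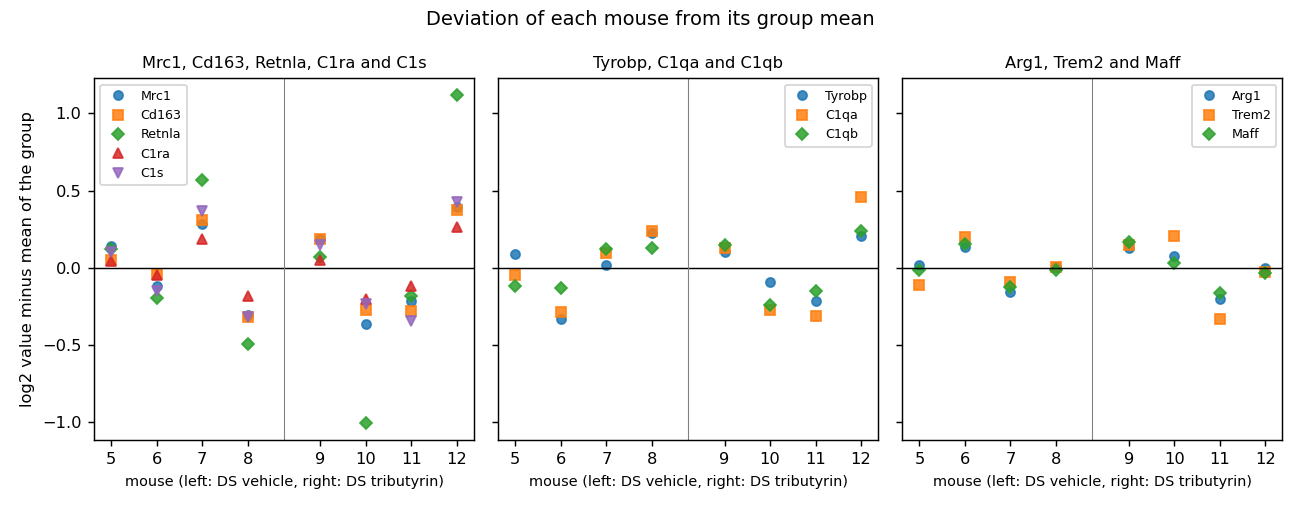
Log2 value of each mouse minus the mean of its group (vertical axis) for 3 sets of genes, with DS vehicle mice 5 to 8 on the left of each panel and DS tributyrin mice 9 to 12 on the right. Mrc1, Cd163, Retnla, C1ra and C1s lie on the same side of 0 in every mouse, while Tyrobp, C1qa and C1qb are above 0 in vehicle mouse 8, where the first set is lowest in its group.

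Arg1 did not move with the other alternative-activation markers. Its r was -0.07 with Mrc1, 0.03 with Cd163, -0.09 with Chi3l3 and -0.26 with Retnla. With other myeloid genes r was 0.03 (Tyrobp), 0.02 (C1qa), -0.04 (C1qb), 0.28 (Itgb2) and 0.89 (Trem2). Several of these values depended on the setting. With the 2 mice lying farthest from the median of Arg1 left out, r was -0.74 for Tyrobp and -0.62 for C1qa. With median centring it was 0.48 for Itgb2 and -0.48 for Retnla, and with quantile normalization -0.44 for Chi3l3 and -0.43 for Retnla. Which cells of the tissue carried the Arg1 RNA was not tested. The nearest genes of Arg1 were Maff (r = 0.96), a small Maf transcription factor, and Oasl1 (r = 0.93), an oligoadenylate synthetase-like protein. Mice 7 and 11 were the lowest of their groups for both Arg1 and Maff. Trem2 had Arg1 (r = 0.89) and Maff (r = 0.86) as its nearest genes, but its spread lay under the counting error. Chi3l3 was nearest to Cfb (r = 0.91), complement factor B, and Gnas (r = 0.91), a G-protein subunit, and Nos2 to Hmgb2 (r = 0.89) and Gnas (r = 0.84). With the 2 mice lying farthest from the marker's median left out these became 0.76 and 0.69 for Chi3l3 and 0.30 and -0.23 for Nos2, so that the relations of Nos2 rested on those mice. Itgb2 was nearest to Hsh2d (r = 0.89), an adaptor of blood cells, and Kng1 (r = 0.89), the precursor of kinins. With the 2 mice left out these were 0.94 and 0.60, but the pooled spread of Itgb2 was only 0.894 times its counting error.

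The markers of the programs were set against each other by log2 ratios within each mouse, in which the deposited scaling factor cancels. In whole tissue such ratios need not come from macrophages alone. A background that adds to the counts would not cancel. Nos2 in 3 of 8 mice and Trem2 in all 8 lay within the range of the 6 liver and heart genes. Myl2 set the top of this range, and the liver genes among the 6 reached 49.9, under every value of Nos2. Besides those 3 mice, Nos2 in vehicle mice 5 and 7 was below the highest value of Kng1. These ratios are therefore limited by probes not shown to be above background. The mean of the 5 alternative-activation markers over Nos2 was 2.20, 2.28, 2.27 and 1.94 in vehicle mice 5 to 8 and 1.95, 2.12, 1.89 and 2.56 in tributyrin mice 9 to 12. Mouse 12 was the highest of all and the other 3 tributyrin mice lay within or just below the vehicle range. The group means were 2.17 ± 0.16 (SD, n = 4) and 2.13 ± 0.30 (SD, n = 4), a difference of -0.04 that is smaller than either SD. Its sign turned with quantile normalization (0.022) and without tributyrin mouse 9 (0.017) or 11 (0.039), and it was -0.17 without mice 9 and 12 and -0.19 without tributyrin mouse 12. Since Arg1, Mrc1, Cd163, Chi3l3 and Retnla did not vary as 1 group, the mean hides opposite members. Over Nos2, the log2 difference between the groups was 0.27 for Chi3l3, 0.05 for Cd163, -0.0020 for Mrc1, -0.25 for Retnla and -0.28 for Arg1.

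Over the mean of Trem2, Tyrobp and Itgb2, the alternative-activation markers stood at 1.64, 1.68, 1.86 and 1.31 in vehicle mice 5 to 8 and at 1.72, 1.24, 1.75 and 2.08 in tributyrin mice 9 to 12. Vehicle mouse 8 and tributyrin mouse 10 were the low ones of their groups and mice 7 and 12 the high ones. The means were 1.62 ± 0.23 (SD, n = 4) and 1.70 ± 0.34 (SD, n = 4), and the difference of 0.07 became -0.13 without mice 9 and 12, -0.05 without tributyrin mouse 12 and -0.03 without vehicle mouse 8. Nos2 over the same 3 markers had -0.55 ± 0.10 (SD, n = 4) in the vehicle group and -0.43 ± 0.33 (SD, n = 4) in the tributyrin group, with mouse 10 lowest at -0.87 and mouse 11 highest at -0.13. The median log2 difference was 0.24 over the 5 alternative-activation markers, 0.25 for Nos2 and 0.16 over the 3 pan-myeloid markers, beside 0.06 over the panel. Without mice 9 and 12 these medians were -0.05, 0.07 and 0.0062, and none of the ratios separated the groups.

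**Figure D5:**
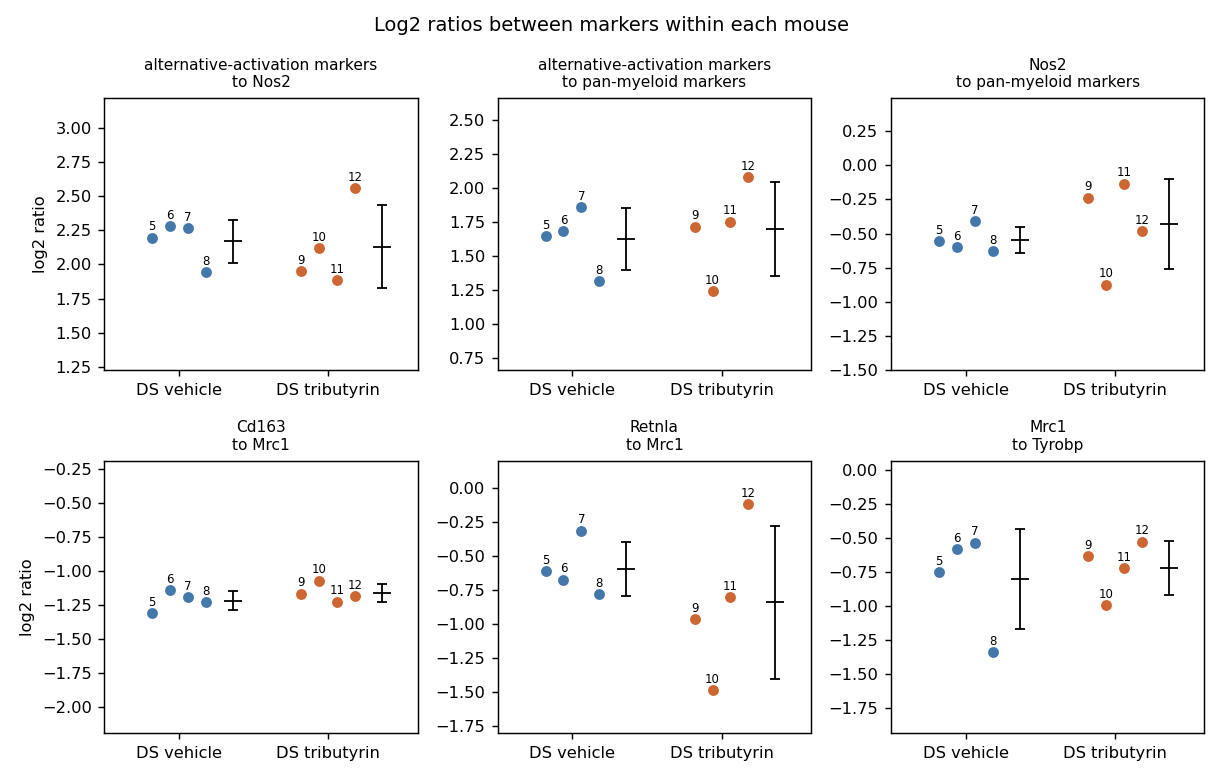
Log2 ratio (vertical axis, each panel spanning 2 log2 units) between markers within each mouse, with the mouse number above its point, DS vehicle in blue, DS tributyrin in orange and the mean and SD in black. All 6 ratios overlap between the groups, and that of Cd163 to Mrc1 has the narrowest range (-1.31 to -1.07).

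Other genes of the pathway are given by list, each list drawn up from textbook roles. Of 10 listed genes of type 2 and regulatory signals, 7 were measured (Il4, Il13, Il5, Il10, Tslp, Csf1 and Tgfb1), and 0 passed an adjusted p of 0.05. Log2 differences were above 0 for 3 of them and below for 4, with a median of -0.02. In that list Il5, a cytokine of type 2 immunity, had 24.2 ± 0.60 normalized counts (SD, n = 4) in the vehicle group and 29.3 ± 3.39 (SD, n = 4) in the tributyrin group (limma adjusted p = 0.240). Its groups did not overlap, as for 7.26% of the panel. Il5 lay between 23.5 and 33.4 normalized counts in all mice, within the range of the liver and heart genes. Its pooled log2 SD of 0.12 was under the counting error of 0.28. Csf1, the growth factor of macrophages, had 912 ± 107 (SD, n = 4) and 848 ± 88.9 (SD, n = 4) (limma adjusted p = 0.679). Of 8 other genes raised in alternatively activated macrophages 6 were measured and 0 passed, with 5 above 0 and a median of 0.17. Ccl8 had a log2 difference of 0.23 (limma adjusted p = 0.393) and Ccl24 one of 0.32 (limma adjusted p = 0.454), both chemokines. Both lay between 33.5 and 59.2 normalized counts in all mice, within the range of the liver and heart genes. The pooled log2 SD of Ccl8, 0.14, was under its counting error of 0.22, and that of Ccl24, 0.24, was near its 0.21.

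On the classical side, all 8 listed inputs were measured and 0 passed, with 5 above 0 and a median of 0.02. Tnf, a main inflammatory cytokine, had 474 ± 86.2 normalized counts (SD, n = 4) in the vehicle group and 370 ± 59.0 (SD, n = 4) in the tributyrin group, a log2 difference of -0.35 (95% interval -0.73 to 0.03, limma adjusted p = 0.454). Ifng, the cytokine that primes macrophages for Nos2, had 16.9 ± 5.05 (SD, n = 4) and 21.5 ± 4.51 (SD, n = 4) (limma adjusted p = 0.480). It lay between 10.4 and 28.0 normalized counts, within the range of the liver and heart genes or below it. Of the 11 outputs, all measured, 0 passed, with 7 above 0 and a median of 0.10. Il12a and Il12b encode the chains of interleukin-12 and had opposite signs, at -0.44 (limma adjusted p = 0.116) and 0.23 (limma adjusted p = 0.469). Of these, Il12a had groups that did not overlap, as for 7.26% of the panel. Both genes lay between 18.6 and 34.3 normalized counts in all mice, within the range of the liver and heart genes. The pooled log2 SD of Il12a, 0.16, was under its counting error of 0.28.

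Markers of myeloid and other cells outside the 9 were few on the panel. For macrophages and monocytes 3 of 15 listed genes were measured, and their summed normalized count was 561 to 691 in vehicle mice and 568 to 858 in tributyrin mice. C1qa and C1qb had log2 differences of 0.06 and 0.02 (limma adjusted p = 0.899 and 0.939). Ccr2, the chemokine receptor of inflammatory monocytes, had 100 ± 12.2 (SD, n = 4) and 134 ± 24.7 (SD, n = 4), a log2 difference of 0.41 (95% interval 0.07 to 0.74, limma adjusted p = 0.321). For neutrophils 1 of 7 was measured, Cxcr2, at 24.9 to 32.6 normalized counts in vehicle and 28.5 to 46.7 in tributyrin mice. For dendritic cells 1 of 6 was measured, Ccr7, at 9.63 to 11.9 and 13.6 to 20.3. Its log2 difference was 0.64 (limma adjusted p = 0.0752), and its groups did not overlap, as for 7.26% of the panel. Its recovered counts were only 10 to 18 per mouse, and its pooled log2 SD of 0.22 was under the counting error of 0.39. For T cells 3 of 6 were measured (Cd4, Cd40lg and Il2), with sums of 69.2 to 99.8 and 85.3 to 109 normalized counts. These markers of neutrophils, dendritic cells and T cells lay no higher than 48.3 in any mouse, within the range of the genes of other organs or below it. None of the listed markers of B cells, mast cells or fibroblasts was analysed here. The part of other cells in the values of the 9 markers was not tested.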

How the data were processed

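Conjunctival RNA of 8 mice was measured with the nCounter Mouse Inflammation V2 panel. Per the methods, the authors normalized counts by 6 reference genes through their geometric mean, on the ROSALIND platform. The deposited values are log2 normalized counts of 248 genes. The sources used here do not state a background subtraction. Antilogged values were integer multiples of a mouse's own step for 100% of genes (tolerance 0.001), and these multiples are the recovered counts, which a constant added or subtracted beforehand would shift. No pair of columns was identical.

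The log2 values were fitted as deposited with limma 3.58.1 (R 4.3.3; lmFit and eBayes), with group as the only term and no filter, and p-values were adjusted over 248 genes. The script was tested on simulated data with known changes. Exact permutation tests used all 70 assignments and were two-sided. Counting error on the log2 scale was 1 over (ln 2 times the square root of the mean recovered count). Cages and days of dissection are not given, so p-values measure only the spread between these mice.

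The members and lists were chosen with earlier results of these data known, and the genes of other organs after their values were seen. Genes named beside the 9 are the 2 of each pathway list with the smallest unadjusted p, the 2 nearest to each marker in deviations among genes with a mean of at least 50, and cell type markers. Alternatives were median centring, a pseudocount of 10, an exact rank test, quantile normalization, the log2 scaling factor as a covariate, a mean-variance trend, filters at means of 20 and 100, and leaving out each mouse or the 2 of lowest total. Python 3.11.15, NumPy 2.4.6, SciPy 1.17.1, pandas 2.3.3 and matplotlib 3.10.9 were used. Gene identifiers of the 9 were matched to GRCm38.p6.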

Additional observations from a re-analysis of the deposited data

Results flagged for a closer look

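Among 80 groups of 4 values looked at, 3 held a mouse that stood apart from the rest of its group, and chance alone gives about 4 such groups. The log2 value of Csf1 was 9.94 in tributyrin mouse 12 and 9.63 to 9.68 in the other tributyrin mice. The log2 ratio of Chi3l3 to Nos2 was -0.43 in vehicle mouse 6 and -0.93 to -0.85 in the other vehicle mice. The log2 ratio of Retnla to Nos2 was 1.86 in tributyrin mouse 12 and 0.21 to 0.48 in the other tributyrin mice.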

How the results depend on the processing

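Of 117 log2 differences of the 9 markers recomputed under other settings, 101 kept their sign and 16 changed it. The filters, the mean-variance trend and the exact rank test (32 further values) reuse the same difference and bear only on p, and the rank test, whose smallest p is 0.0286, could hardly pass after adjustment. The lowest adjusted p of a marker was 0.0648. Chi3l3, Cd163, Nos2, Tyrobp and Itgb2 kept their sign in all of them. Retnla was 0.0085 with a pseudocount of 10, Mrc1 was -0.047 without the 2 shallowest mice, and Trem2 was -0.0033 with median centring, -0.14 with quantile normalization, -0.045 with the covariate and -0.044 without the 2 shallowest mice. Leaving out each mouse gave -0.088 to 0.033 for Arg1, -0.38 to 0.33 for Retnla and -0.053 to 0.13 for Trem2.

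The count of panel genes past an adjusted p of 0.05 was 0, and 6 with each of median centring, a pseudocount of 10 and the filter at 20, and 7 with each of the filter at 100 and the mean-variance trend. Leaving out each mouse gave 0 to 6 (1 without vehicle mouse 5, 6 without vehicle mouse 8 and 4 without tributyrin mouse 11). None of the 9 markers was among them. The median of the pan-myeloid markers was 0.0062 without the 2 shallowest mice. The median of the alternative-activation markers was -0.0015 with the filter at 100, which leaves 3 of the 5, and their ratio to the pan-myeloid markers was then -0.12. The filter at 100 leaves out Nos2, so its ratio has no value there, and the ratios were not run with the covariate. The causes were not tested. No paired analysis was possible because mouse numbers differ between the groups. The pooled spread over mice was 0.673 times the counting error for Trem2, 0.894 for Itgb2, 1.42 for Nos2 and 1.80 for Chi3l3.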
